A study of Rattus norvegicus with 16 samples.

Results

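The autophagy machinery genes are 38 genes chosen by symbol, with earlier results of these data known. Their proteins start the autophagosome, build its membrane, attach ATG8 proteins to it, select its cargo, switch on its genes or tether it to the lysosome. Of the 38 genes, 35 had a row in the deposited table of 17147 genes. All 35 passed the filter for low counts that kept 11658 genes for testing. The symbols Atg2b, Atg4a and Atg101 had no row. They were measured in the supraspinatus, a muscle of the rotator cuff, of Sprague Dawley rats. The 16 mRNA libraries form 4 groups of 4. The 0-day group is unoperated controls, and the other groups were sampled 10, 30 and 60 days after both shoulders received a full-thickness supraspinatus tear with suprascapular neurectomy, so tear and denervation cannot be told apart here. Age, sex, the side of each library and which libraries share a rat are not given in the sources used here, so p-values measure the spread between libraries.

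Autophagy wraps part of the cytoplasm in a double membrane, the autophagosome, and delivers it to the lysosome for breakdown. The ULK1 kinase complex starts the process and the class III PI3-kinase complex marks the membrane with a lipid that recruits WIPI proteins. ATG9A and ATG2 proteins supply and spread lipid, a ubiquitin-like conjugation system attaches LC3 and GABARAP proteins (the ATG8 family), and cargo receptors bind these proteins. In skeletal muscle autophagy clears damaged organelles and proteins, and it is known to be regulated in denervated and atrophying fibres. Transcript levels show how much messenger RNA was present, not how much autophagy took place.

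Levels are given as fragments of a gene per 1 M (mega) fragments of its library (CPM), scaled between libraries with TMM factors, which assume that most genes do not change. A call means an adjusted p under 0.05 in edgeR's quasi-likelihood test, adjusted by the Benjamini-Hochberg method over all genes tested. Library totals ran from 17.2 to 39.9 M fragments, and the 60-day libraries, at up to 22.4 M, were below every other one. The choice of scale matters in these muscles. Dividing by library totals alone moved the middle of the log2 fold changes of all genes (their median) by 0.66, 0.49 and 0.41 at 10, 30 and 60 days against 0 days. Over the same times the summed level of 11 muscle fibre transcripts, such as the actin Acta1 and the creatine kinase Ckm, ran from 242972 to 264683 CPM in controls and from 56917 to 62719 after 10 days, and then from 99713 to 154511 after 30 and from 144547 to 160007 after 60 days. Values by library totals are therefore printed beside most of those with TMM factors. Replicate 2 at 10 days was the highest of its group for 23 of the 35 genes, replicate 1 at 60 days was the highest for 23, and replicate 4 at 60 days was the lowest for 23.

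At 10 days the autophagy genes moved in both directions, and at 30 and 60 days most of the called ones were lower than in unoperated muscle. At 10 days 13 of the 35 were called higher and 8 lower, with a median log2 fold change of 0.08. Among all genes tested 33.3% were called higher and 29.4% lower, close to the members' 37.1% and 22.9%. At 30 days 3 were higher and 19 lower, with a median of -0.17, where 33.7% of all genes were higher and 30.9% lower and the median of all genes was 0.05. At 60 days 2 were higher and 18 lower, with a median of -0.26, where 29.9% of all genes were higher and 29.1% lower and the median of all genes was 0.04. Of the members, 54.3% were thus lower at 30 days and 51.4% at 60 days. Without replicate 2 at 10 days, 10 members were higher and 8 lower at that time. Without replicate 1 at 60 days the counts at that time were 1 and 20, and without replicate 4 they were 2 and 17. Any difference among the 4 groups was called for 31 of the 35, where 84.7% of all genes were called. The exceptions were Atg14, Atg3, Atg5 and Gabarap.

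**Figure D1:**
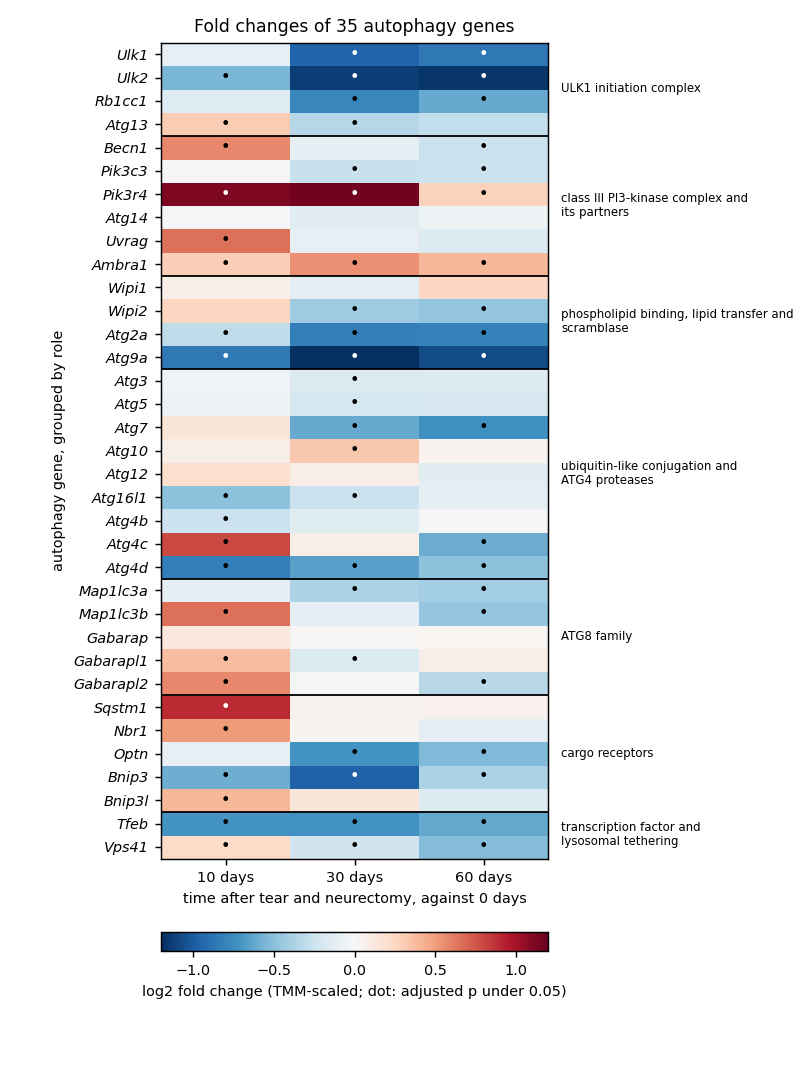
Log2 fold changes of the 35 autophagy genes (rows, grouped by role) at 10, 30 and 60 days against 0 days (columns), with TMM scaling, n = 4 libraries per group. Red is higher and blue lower than at 0 days, and a dot marks an adjusted p under 0.05; the 10-day column holds 13 called rises and the 30-day column 19 called falls.

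The counts depended on the scale, for the members as for all genes. With library totals 30 members were higher and 2 lower at 10 days, where 70% of all genes were higher and 10.1% lower. At 30 days 22 were higher and 9 lower with totals, beside 63.1% and 11.9% of all genes, so the 22 rises were at the background share. At 60 days 14 were higher and 6 lower, beside 57.8% and 12.1%. With upper-quartile factors 16 were higher and 8 lower at 10 days (all genes 36.7% and 27%), 5 and 12 at 30 days (40.8% and 24.8%), and 5 and 14 at 60 days (39.1% and 22.4%). The falls not called with upper-quartile factors were those of Atg13, Pik3c3, Atg3, Atg5, Atg16l1, Gabarapl1 and Vps41 at 30 days and of Becn1, Pik3c3, Gabarapl2 and Bnip3 at 60 days. All 13 rises at 10 days were called under totals. That scale moved the median of all genes up by 0.66 at 10 days, so this was largely fixed in advance. Of the falls, 2 of 8 were called with totals at 10 days (Atg4d and Atg9a), 9 of 19 at 30 days (Atg2a, Atg4d, Atg9a, Bnip3, Optn, Rb1cc1, Tfeb, Ulk1 and Ulk2) and 6 of 18 at 60 days (Atg2a, Atg7, Atg9a, Rb1cc1, Ulk1 and Ulk2). As a share of all fragments the 35 genes took 0.377% ± 0.0113 (SD, n = 4) in controls and 0.681% ± 0.0332 after 10 days, then 0.420% ± 0.0371 after 30 and 0.406% ± 0.0179 after 60 days. Sqstm1 alone accounted for 0.0677% of all fragments at 0 days and 0.198% at 10 days. In these whole-muscle samples fewer cells of a type and less RNA per cell cannot be told apart.

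**Figure D2:**
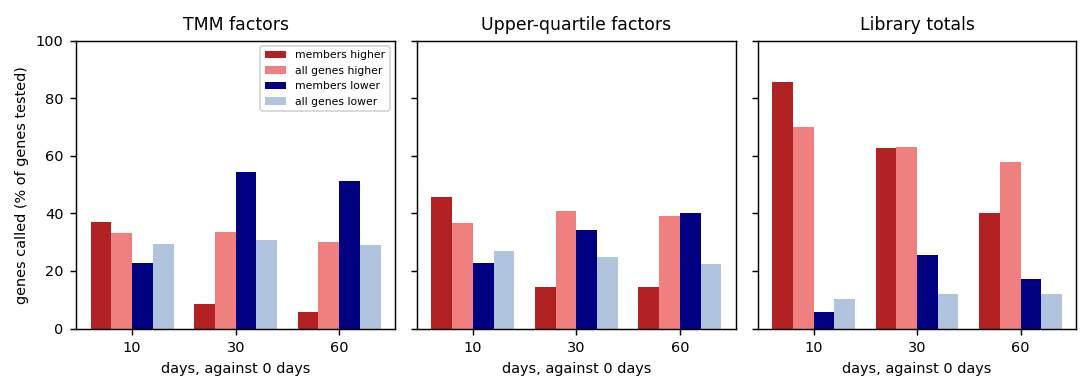
Percent of genes called higher (red) or lower (blue) against 0 days, for the 35 autophagy genes (dark bars) and all 11658 genes tested (light bars), at 10, 30 and 60 days, under 3 ways of scaling the libraries. With TMM factors 54.3% of the members were lower at 30 days against 30.9% of all genes; with library totals the lower bars shrink for both.

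Tfeb encodes a transcription factor that switches on lysosomal and autophagy genes when it enters the nucleus, and its transcript was lower at all 3 times. Its level was 98.3, 104, 93.5 and 103 CPM in the 4 libraries at 0 days, 58.4, 72.9, 58.7 and 53.2 at 10 days, 53.1, 62.9, 65.8 and 59.8 at 30 days and 68.6, 62.9, 59.5 and 70.3 at 60 days. Every injured library was below every control. The log2 fold change was -0.71 ± 0.09 (SE) at 10 days, -0.72 ± 0.09 at 30 days and -0.61 ± 0.09 at 60 days, with edgeR adjusted p-values of 4.76e-06, 5.05e-06 and 4.04e-05. With library totals these were -0.06, -0.23 and -0.20, and of these the value at 30 days was called. Transcript level says nothing of where the protein was.

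TFEB binds DNA elements that contain the letters CACGTG, so the members' promoters were searched for it, from 250 bases before to 50 after the start of each gene in RefSeq's GRCr8 annotation, which is not the build of the counts. RefSeq promoters were found for 33 of the 38 genes; Rb1cc1, Becn1, Atg9a, Map1lc3a and Bnip3l had no entry. CACGTG, which reads the same on both strands, was in 4 of the 33 (Atg14, Atg3, Atg5 and Bnip3) and in 6.42% of 33469 promoters of that length. The longer TCACGTGA, which contains CACGTG and also reads the same on both strands, was in Atg3 and in 0.777% of all promoters. TGTTTAC, a motif of the FOXO factors that drive atrophy genes, searched on both strands, was in none of the 33 and in 3.78% of all. The 4 members with a match are shown as 60 bases of sense strand around it, with matched letters in capitals. They lie at chr11:69159275-69159334 (Atg3, minus strand), chr20:49380789-49380848 (Atg5, plus), chr15:23306777-23306836 (Atg14, minus) and chr1:203155029-203155088 (Bnip3, minus).
Atg3: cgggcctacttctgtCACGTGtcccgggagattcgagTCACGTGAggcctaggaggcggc
Atg5: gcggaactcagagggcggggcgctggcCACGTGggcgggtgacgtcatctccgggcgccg
Atg14: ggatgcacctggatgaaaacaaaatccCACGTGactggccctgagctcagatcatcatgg
Bnip3: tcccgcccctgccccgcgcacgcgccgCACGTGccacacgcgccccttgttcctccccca
The match begins 99 bases before the start in Bnip3, 39 and 16 bases before it in Atg3, and 19 bases before it in Atg5. In Atg14 it lies just after the start. The 4 genes did not share a pattern. Atg3, an enzyme that hands LC3 to its lipid, and Atg5, part of the complex that completes this step, were called lower at 30 days (-0.17 and -0.22, edgeR adjusted p 0.036 and 0.0279; with totals 0.32 and 0.28). Of the 16 fits that left out 1 library, 5 lost each call, namely replicates 1, 2 and 3 at 0 days for both genes, replicates 2 and 3 at 30 days for Atg3, and replicates 1 and 3 at 30 days for Atg5. Atg14, a subunit that steers the PI3-kinase complex to autophagy, was not called at any time with TMM factors (-0.02, -0.14 and -0.06) and was called higher at all 3 with totals (0.64, 0.35 and 0.34). Bnip3 was lower at all 3 with TMM factors (its totals values are given below with the cargo receptors). For comparison, the whole 300-base promoters of Sqstm1 (chr10:35037701-35038000, minus strand) and Map1lc3b (chr19:66574345-66574644, plus strand), a cargo receptor and an ATG8 gene that rose at 10 days, held none of the 3 motifs, so nothing in them is capitalised.
Sqstm1: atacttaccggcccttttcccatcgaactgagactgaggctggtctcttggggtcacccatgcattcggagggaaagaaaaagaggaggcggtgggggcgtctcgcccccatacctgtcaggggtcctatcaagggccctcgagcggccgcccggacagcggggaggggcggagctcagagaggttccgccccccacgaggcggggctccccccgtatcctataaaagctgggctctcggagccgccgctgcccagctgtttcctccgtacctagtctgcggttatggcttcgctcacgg
Map1lc3b: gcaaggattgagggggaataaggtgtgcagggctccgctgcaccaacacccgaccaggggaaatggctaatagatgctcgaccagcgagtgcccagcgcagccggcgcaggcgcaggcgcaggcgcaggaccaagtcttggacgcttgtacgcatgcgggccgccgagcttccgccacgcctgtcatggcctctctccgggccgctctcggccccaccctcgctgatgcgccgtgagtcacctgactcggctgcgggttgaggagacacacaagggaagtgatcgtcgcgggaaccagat

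Of the 4 measured genes of the ULK1 initiation complex, 4 were called lower at 30 days and 3 at 60 days, with medians of -0.87 and -0.73, where 30.9% and 29.1% of all genes were lower. The exception at 60 days was Atg13. With totals 3 were lower at each time, where 11.9% and 12.1% of all genes were. Ulk1, the kinase that receives nutrient signals, was measured at 113, 116, 90.8 and 100.3 CPM at 0 days, 85.4, 109, 108 and 91.3 at 10 days, 55.5, 53.0, 52.2 and 57.4 at 30 days and 67.1, 56.5, 54.0 and 54.6 at 60 days. The 10-day libraries overlapped the controls, and those at 30 and 60 days were below every control and every 10-day library. Its log2 fold change was -0.10 ± 0.10 at 10 days (not called), -0.95 ± 0.10 at 30 days and -0.86 ± 0.10 at 60 days (edgeR adjusted p 4.94e-07 and 2.34e-06). With library totals the 10-day value turned to 0.56 and was called, and the later ones were -0.45 and -0.45, both called.

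Ulk2, a second kinase of the same family, was lower from 10 days on. Its levels were 165, 155, 168 and 161 CPM at 0 days, 112, 118, 108 and 106 at 10 days, 70.2, 77.6, 72.4 and 76.7 at 30 days and 87.6, 68.6, 68.3 and 65.3 at 60 days. The 10-day libraries lay between the controls and both later groups, with no overlap. The log2 fold changes were -0.54 ± 0.08, -1.13 ± 0.08 and -1.16 ± 0.08, or 2.24-fold lower at 60 days, with edgeR adjusted p-values of 1.95e-05, 9.83e-09 and 1.76e-08. With totals the 10-day value was 0.11 and not called, and the others, -0.63 and -0.76, were called. Rb1cc1, the scaffold of the complex also called FIP200, changed by -0.78 at 30 days and -0.61 at 60 days (with totals -0.29 and -0.20, both called). Atg13, which links the kinase to the scaffold, was higher at 10 days (0.30, edgeR adjusted p 0.0444; with totals 0.96) and lower at 30 days (-0.34, 0.0268; with totals 0.16, not called). At 60 days its value was -0.30, not called, and 0.10 with totals. Atg13 lost its 10-day call in 10 of the 16 fits without 1 library and its 30-day call in 3. These were replicates 1, 3 and 4 at 0 days, each replicate at 10 days, replicates 1 and 2 at 30 days and replicate 3 at 60 days for the first, and replicate 2 at 0 days and replicates 2 and 3 at 30 days for the second. The 10-day call was also lost with RLE factors, DESeq2, no filter and the title letter, which are described below. The 30-day call was lost with upper-quartile factors and thinned counts. The row RGD1359310, whose name RefSeq lists as a synonym of Atg101, the last subunit of the complex, lies outside the rule. Its mean level was 59.4 CPM ± 3.77 (SD, n = 4) in controls and 30.2 ± 1.73 after 10 days, then 39.6 ± 4.00 after 30 and 42.3 ± 2.74 after 60 days. The log2 fold changes were -0.97, -0.59 and -0.49 (edgeR adjusted p 2.16e-08, 7.5e-06 and 6.38e-05), and -0.32, -0.09 and -0.08 with totals.

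**Figure D3:**
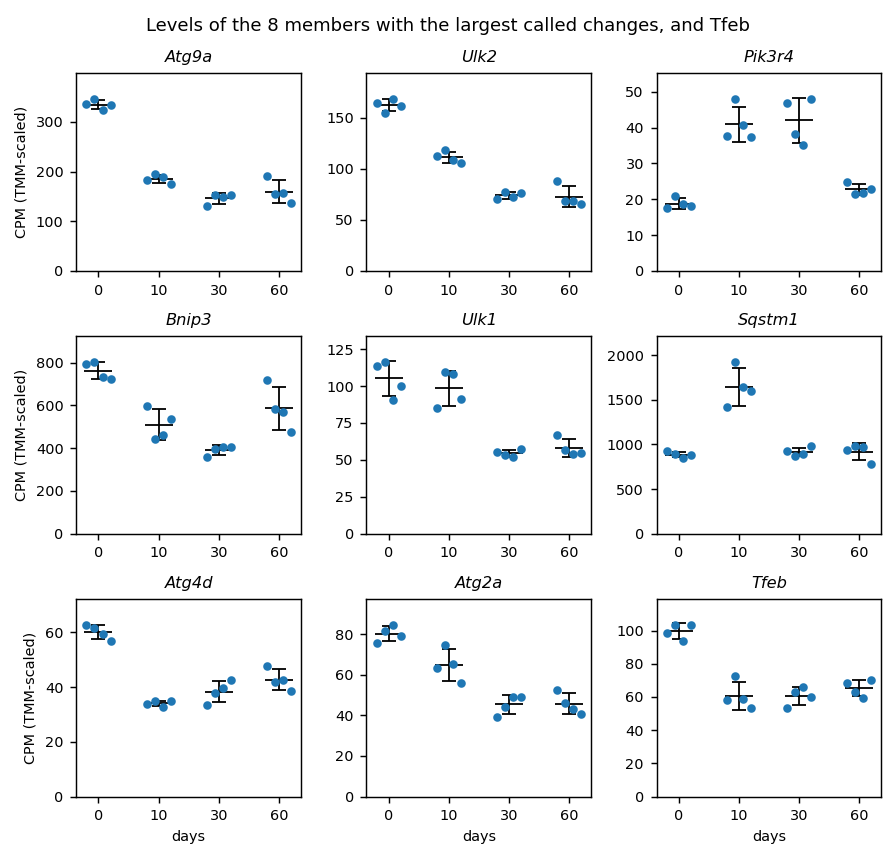
TMM-scaled CPM of the 8 members with the largest called changes against 0 days, and of Tfeb, in each of the 16 libraries (points, from left to right replicates 1 to 4) with the group mean and SD (bars), n = 4. Axes start at 0 and differ between panels; Sqstm1 stands above the other groups at 10 days alone, and Atg9a and Ulk2 below the controls at all 3 times.

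The class III PI3-kinase genes held the largest rise. Pik3r4 encodes VPS15, the regulatory subunit that holds the lipid kinase in the complex. It was measured at 17.6, 21.0, 18.6 and 18.0 CPM at 0 days, 37.5, 48.0, 40.7 and 37.4 at 10 days, 46.9, 38.1, 35.1 and 47.9 at 30 days and 24.8, 21.4, 21.9 and 22.9 at 60 days. The 10- and 30-day libraries were above every library of the other groups, and those at 60 days were above the controls by a narrow margin. The level was 2.17-fold that of controls at 10 days (log2 1.12 ± 0.11, edgeR adjusted p 1.76e-07) and 2.23-fold that of controls at 30 days (log2 1.16 ± 0.11, 1.7e-07). At 60 days the log2 fold change was 0.27 ± 0.11 (edgeR adjusted p 0.0423), and this call was lost in 7 of 16 fits without 1 library (without replicate 1, 3 or 4 at 0 days, replicate 3 at 10 days, or replicate 1, 3 or 4 at 60 days). That call was also lost with DESeq2, limma-voom, no filter, the replicate block, the title letter and thinned counts, which are described below. With library totals the values at the 3 times were 1.78, 1.66 and 0.68, each called.

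The other genes of this group differed among themselves. Pik3c3, the lipid kinase itself (VPS34), had a log2 fold change of 0.00 at 10 days (0.66 with totals, called). It was called lower at 30 and 60 days (-0.27 and -0.26, edgeR adjusted p 0.00343 and 0.00566). With totals these later values were 0.22, called higher, and 0.15, not called. Becn1, the scaffold Beclin 1, was higher at 10 days (0.57, 5.85e-06; with totals 1.23) and lower at 60 days (-0.26, 0.00781; with totals 0.14). Uvrag, a partner of Beclin 1 in the complex that serves endosomes and maturation, was higher at 10 days (0.66, edgeR adjusted p 0.00232; with totals 1.32). Its later values, -0.10 and -0.16, were not called, and with totals they were 0.40, called, and 0.24, not called. Ambra1, a regulator that binds Beclin 1, was higher at all 3 times (0.29, 0.54 and 0.40; with totals 0.95, 1.04 and 0.81). Its 10-day libraries overlapped the controls, and the 10-day call was lost without replicate 2 of that group.

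Of the 4 measured genes for lipid binding and supply at the growing membrane, 3 were lower at 30 and at 60 days, where 30.9% and 29.1% of all genes were lower (with totals 2, where 11.9% and 12.1% were), and Atg9a had the largest fall. Its protein is a scramblase, which moves lipids between the leaflets of a membrane and travels on vesicles that seed the autophagosome. Atg9a was measured at 337, 346, 323 and 333 CPM at 0 days, 183, 195, 188 and 175 at 10 days, 131, 152, 148 and 153 at 30 days and 190.4, 155, 157 and 136 at 60 days. No injured library reached the controls, whose lowest value was 323 CPM. The level was 1.81-fold lower at 10 days and 2.29-fold lower at 30 days. The 3 times had log2 fold changes of -0.85 ± 0.09, -1.20 ± 0.09 and -1.07 ± 0.09 (edgeR adjusted p 2.79e-07, 1.02e-08 and 6.3e-08). With totals Atg9a was still called lower at the 3 times, by smaller log2 values of -0.20, -0.71 and -0.67.

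Atg2a encodes the bridge that carries lipids from the endoplasmic reticulum to the autophagosome. Its levels were 75.7, 81.4, 84.7 and 79.1 CPM at 0 days, 63.2, 74.9, 65.5 and 55.8 at 10 days, 39.3, 44.3, 49.2 and 49.2 at 30 days and 52.7, 46.3, 43.0 and 40.8 at 60 days. The 10-day libraries lay just below the controls and the later ones below both. On the log2 scale the changes were -0.31 ± 0.10, -0.82 ± 0.10 and -0.81 ± 0.10 (edgeR adjusted p 0.0113, 2.45e-06 and 4.06e-06). With totals the 10-day value turned to 0.35, while -0.33 and -0.41 were called lower. Of the WIPI proteins, which read the lipid made by the PI3-kinase, Wipi2 was lower at 30 and 60 days (-0.43 and -0.47; with totals 0.06 and -0.07, neither called). At 10 days Wipi2 was not called with TMM factors but was called higher with totals (0.91) and with upper-quartile factors (0.31). Wipi1 was not called against 0 days with TMM factors (0.08, -0.12 and 0.24) and was called higher at all 3 times with totals (0.74, 0.37 and 0.65) and at 60 days with upper-quartile factors (0.38). From 30 to 60 days it rose by 0.36 (edgeR adjusted p 0.0184; with totals 0.27).

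In the conjugation system the largest falls and rises were in the ATG4 proteases, which trim ATG8 proteins before they are attached and release them afterwards. Atg4d was measured at 62.8, 61.6, 59.2 and 56.8 CPM at 0 days, 33.8, 34.9, 32.7 and 34.7 at 10 days, 33.4, 37.8, 39.5 and 42.7 at 30 days and 47.8, 41.7, 42.7 and 38.7 at 60 days. Every injured library was below every control. Its log2 fold changes were -0.82 ± 0.08, -0.65 ± 0.08 and -0.49 ± 0.08 (edgeR adjusted p 1.33e-07, 2.37e-06 and 5.62e-05; with totals -0.16, -0.16 and -0.09, the first 2 called). Atg4c moved the other way at 10 days, with 0.79 ± 0.14 (edgeR adjusted p 9.18e-05), and was lower at 60 days (-0.59 ± 0.14, 0.00202; with totals -0.18, not called). With totals Atg4c was called higher at 10 and 30 days (1.45 and 0.57). Atg4b, the protease with the broadest activity on ATG8 proteins, was lower at 10 days (-0.26), but with totals it was called higher at all 3 times (0.40, 0.34 and 0.39).

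Atg7, the E1-like enzyme that activates both ubiquitin-like proteins, was not called at 10 days and was lower at 30 and 60 days (-0.60 and -0.74, edgeR adjusted p 0.00124 and 0.000349; with totals -0.11 and -0.34, the second called). At 10 days Atg7 was called higher with totals (0.80). Atg16l1, which places the conjugating complex on the membrane, was lower at 10 and 30 days (-0.49 and -0.26), but with totals its values were 0.17 and 0.23 and called higher. Atg10, the E2-like enzyme for ATG12, was higher at 30 days (0.32, edgeR adjusted p 0.00293; with totals 0.82). Atg12, the ubiquitin-like protein joined to ATG5, was not called against 0 days with TMM factors (0.19, 0.08 and -0.13) and was called higher at all 3 times with totals (0.85, 0.58 and 0.27). Of the 9 measured genes of this system, 1 was higher and 3 lower at 10 days, 1 and 5 at 30 days, and 0 and 3 at 60 days. The 33.3% lower at 10 and at 60 days was near the 29.4% and 29.1% of all genes, and the 55.6% at 30 days stood beside 30.9%. With totals these counts were 8 and 1, 7 and 1, and 6 and 1, where 70%, 63.1% and 57.8% of all genes were higher.

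Within the ATG8 family, whose members coat the autophagosome and bind cargo receptors, 3 of 5 transcripts were higher at 10 days and 0 at 30 or 60 days, where 33.3%, 33.7% and 29.9% of all genes were higher. With totals 5 were higher at 10 days, 4 at 30 days and 2 at 60 days, beside 70%, 63.1% and 57.8% of all genes. Map1lc3b, or LC3B, the usual marker of autophagosomes, was measured at 258, 252, 247 and 260.5 CPM at 0 days, 362, 434, 399.8 and 415 at 10 days, 246, 222, 217 and 261 at 30 days and 212, 190.1, 183 and 153 at 60 days. The 10-day libraries were above all others and the 60-day libraries below every control. The log2 fold change was 0.66 ± 0.09 at 10 days (edgeR adjusted p 9.31e-06), -0.10 ± 0.09 at 30 days (not called) and -0.46 ± 0.09 at 60 days (0.000445). With totals these were 1.32, 0.39 and -0.06, the last not called.

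Map1lc3a (LC3A) was not called at 10 days with TMM factors and was lower afterwards. Its levels were 183, 167, 196 and 179 CPM at 0 days, 159, 175, 162 and 171 at 10 days, 153, 123, 139 and 144 at 30 days and 135, 138, 145 and 126 at 60 days. The 10-day libraries overlapped the controls and the later ones were below them. Its log2 values were -0.12 (not called), -0.38 and -0.41 (edgeR adjusted p 0.000342 and 0.000192; with totals 0.54, 0.12 and -0.01, the first called).

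**Figure D4:**
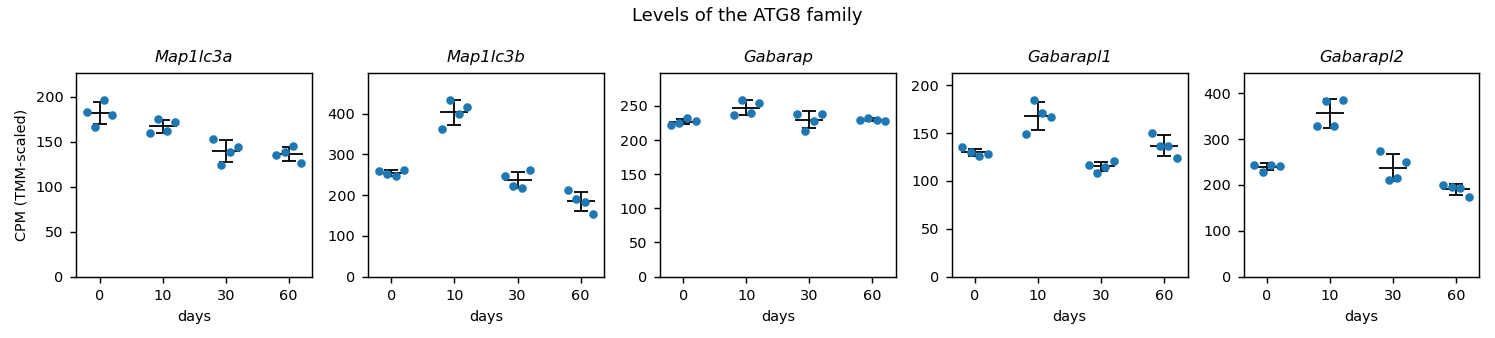
TMM-scaled CPM of the 5 ATG8 family genes in each of the 16 libraries (points, from left to right replicates 1 to 4) with group mean and SD (bars), n = 4, at 0, 10, 30 and 60 days. Axes start at 0; Map1lc3b, Gabarapl1 and Gabarapl2 were above the controls at 10 days, while the 60-day Gabarap libraries lay between 228 and 233 CPM, close to the controls.

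Among the GABARAP genes Gabarap itself was not called at any time with TMM factors, with 223, 226, 232 and 228 CPM at 0 days, 236, 259, 239.8 and 254 at 10 days, 239, 213, 228 and 239 at 30 days and 230.0, 233, 229 and 228 at 60 days. The 10-day libraries were all above the controls, and the later groups overlapped them. Its log2 fold changes were 0.12, 0.02 and 0.02, and with totals they were 0.78, 0.51 and 0.43. With upper-quartile factors they were 0.18, 0.14 and 0.16, and under both of these scales each was called. Gabarapl2, also called GATE-16, had 244, 228, 245 and 242 CPM at 0 days, 329, 383, 329.7 and 386 at 10 days, 275, 211, 216 and 249 at 30 days and 201, 196, 193 and 174 at 60 days. It was above every control at 10 days and below every control at 60 days. The log2 fold changes were 0.57 ± 0.09 and -0.33 ± 0.09 (edgeR adjusted p 3.04e-05 and 0.00471; with totals 1.23 and 0.08).

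Gabarapl1, another GABARAP paralogue, had 135, 130.3, 126 and 128 CPM at 0 days, 149, 185, 171 and 167 at 10 days, 117, 109, 115 and 121 at 30 days and 150.4, 136, 137 and 124 at 60 days. It was above every control at 10 days, below every control at 30 days and overlapped the controls at 60 days. The log2 fold change was 0.37 ± 0.07 at 10 days (edgeR adjusted p 0.000286) and -0.17 ± 0.07 at 30 days (0.0466; with totals 0.32). Of the 16 fits without 1 library, 11 lost the 30-day call, namely those without any 1 of the controls, replicates 3 and 4 at 10 days, replicates 1, 2 and 3 at 30 days or replicates 2 and 3 at 60 days. How fragments shared by near-identical copies of these small genes were assigned is not given in the sources used here, so their levels are uncertain to that extent.

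Cargo receptors tie ubiquitinated proteins or organelles to ATG8 proteins, and Sqstm1, or p62, is the best known. Its level was 925, 892, 843 and 887 CPM at 0 days, 1415, 1924, 1641 and 1602 at 10 days, 926, 867, 889 and 979 at 30 days and 938, 982, 974 and 779 at 60 days. Every 10-day library was above every other library, and the 30- and 60-day libraries overlapped the controls. The rise at 10 days was 1.86-fold (log2 0.89 ± 0.10, edgeR adjusted p 7.58e-07), and the later log2 fold changes were 0.05 and 0.05, not called. With totals they were 1.55, 0.54 and 0.45. Nbr1, a receptor that works with p62, was also higher at 10 days (0.51, edgeR adjusted p 1.92e-05). Its later values, 0.03 and -0.11, were not called, but with totals it was called higher at all 3 times (1.17, 0.53 and 0.30). Optn, a receptor for damaged mitochondria and bacteria, was not called at 10 days and was lower at 30 and 60 days (-0.72 and -0.53; with totals -0.22, called, and -0.12, not called).

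The mitochondrial receptors Bnip3 and Bnip3l, close relatives that sit in the outer membrane, moved in opposite directions at 10 days with TMM factors. Bnip3 was measured at 791, 803, 732 and 725 CPM at 0 days, 598, 441, 459.9 and 536 at 10 days, 357, 398, 403 and 404 at 30 days and 716, 581, 569 and 475 at 60 days. Each injured library was below every control, although replicate 1 at 60 days, at 716 CPM, came close to the lowest control at 725 CPM. The log2 fold changes were -0.58 ± 0.12, -0.97 ± 0.12 and -0.38 ± 0.12 (edgeR adjusted p 0.000329, 2.48e-06 and 0.00955; with totals 0.07, -0.47 and 0.02, the second called). The 60-day call was lost without replicate 4 of that group. Bnip3l, also called NIX, was higher at 10 days (0.40, edgeR adjusted p 0.00124; with totals 1.05). At 30 days it was 0.15, not called, but called with totals (0.65) and with upper-quartile factors (0.27). At 60 days it was -0.16, and 0.25 with totals, neither called.

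Vps41, a subunit of the HOPS complex that tethers autophagosomes and endosomes to lysosomes, was higher at 10 days (0.24, edgeR adjusted p 0.0167) and lower at 30 and 60 days (-0.24 and -0.52, 0.0143 and 4.85e-05). With totals it was 0.89, 0.25 and -0.11. The 10-day call was lost without replicate 2 of that group.

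Ratios of 2 genes within a library do not depend on how libraries are scaled. For 8 pairs of related members, chosen after their values were seen and therefore not tested, the change of the mean log2 ratio against 0 days is given. Map1lc3b relative to Map1lc3a was 0.78 higher at 10 days, 0.27 higher at 30 days and changed by -0.06 at 60 days, and the ratios at 10 and 30 days did not overlap the controls. Gabarapl2 relative to Gabarap was 0.45 higher at 10 days and changed by -0.35 at 60 days, without overlap at either time, and its -0.03 at 30 days overlapped. Gabarapl1 relative to Gabarap was 0.25 higher at 10 days and changed by -0.19 at 30 days, also without overlap, and its 0.05 at 60 days overlapped. Bnip3l relative to Bnip3 was 0.99 higher at 10 days and 1.10 at 30 days, and at 60 days the 0.23 change overlapped the controls. Atg4c relative to Atg4d was 1.60 higher at 10 days, 0.70 higher at 30 days and changed by -0.11 at 60 days. Its ratios at 10 and 30 days did not overlap the controls. Wipi1 relative to Wipi2 was 0.73 higher at 60 days, without overlap, while its changes of -0.18 at 10 days and 0.31 at 30 days overlapped the controls. Sqstm1 relative to Nbr1 was 0.37 higher at 10 days, without overlap, and its changes of 0.01 and 0.15 at 30 and 60 days overlapped. Ulk1 relative to Ulk2 was 0.45 higher at 10 days and 0.32 higher at 60 days, without overlap, and its 0.19 at 30 days overlapped. In all, 14 of the 24 ratios did not overlap the controls and 10 did, 5 of these at 60 days. The share without overlap among other gene pairs was not computed, so these counts say nothing particular to the members.

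**Figure D5:**
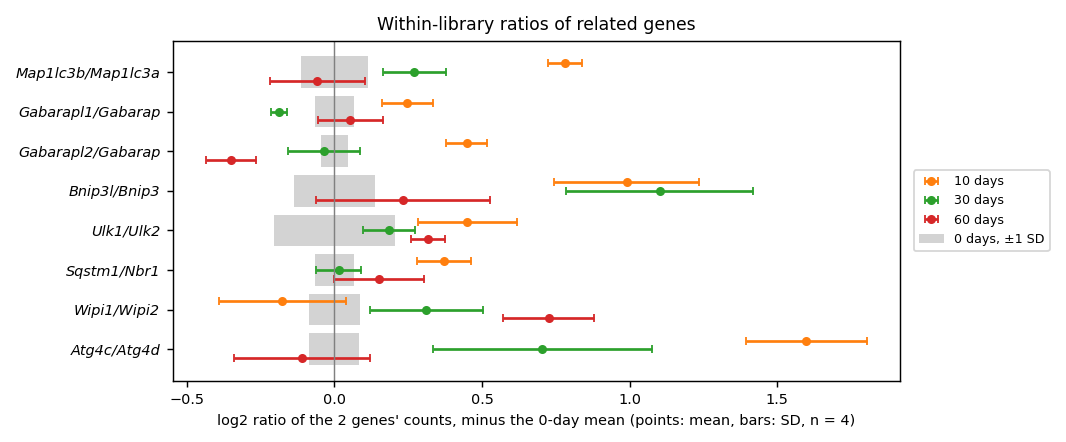
Change of the log2 ratio of 2 genes' counts within a library against the 0-day mean, for 8 pairs of related autophagy genes at 10, 30 and 60 days (points: mean of 4 libraries, bars: SD; grey: SD of the 4 controls). The Atg4c to Atg4d ratio stands 1.60 above its control mean at 10 days, and Bnip3l to Bnip3 0.99 above.

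Comparisons between the injured groups show the change after 10 days, and they share libraries with the comparisons above. From 10 to 30 days 3 members were called higher and 22 lower, with a median of -0.38, where 23% of all genes were higher and 24.3% lower. From 30 to 60 days 3 were higher and 7 lower, where 10.3% of all genes were higher and 12.4% lower. From 10 to 60 days 3 were higher (Atg16l1, Atg4b and Atg4d) and 23 lower, with a median of -0.43, where 29.1% of all genes were higher and 31.9% lower. With library totals the counts from 10 to 60 days were 0 and 28, where 17.7% of all genes were higher and 45.5% lower. All 23 falls were called there as well, on a scale that put the median of all genes at -0.26. With TMM factors the largest fall was that of Atg4c, with -1.38 ± 0.14, followed by Map1lc3b with -1.13 ± 0.09 (edgeR adjusted p 4.93e-07 and 6.77e-08). From 30 to 60 days Bnip3 rose by 0.58 and Pik3r4 changed by -0.88 (edgeR adjusted p 0.00216 and 5.29e-05). Without replicate 1 at 30 days 3 members were lower from 30 to 60 days instead of 7, and without replicate 4 at 60 days 5 were higher instead of 3.

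The wider pathway, a list of 75 other autophagy genes of which 69 were tested, was described in the same way. There were 16 higher and 24 lower at 10 days, 9 and 40 at 30 days, and 9 and 43 at 60 days, with medians of -0.02, -0.30 and -0.34. The lower shares of 34.8%, 58% and 62.3% stood beside 29.4%, 30.9% and 29.1% of all genes, so that at 10 days was near the background. With library totals the counts were 49 and 10, 32 and 17, and 19 and 18, beside 70%, 63.1% and 57.8% of all genes higher and 10.1%, 11.9% and 12.1% lower. The 22 genes called with a log2 fold change of at least 1 in size against 0 days are named with the value at the time of their largest called change and, in brackets, that value with totals. How many of all genes pass this cut was not computed, so the 22 are not set against a background.

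In the list of mTORC1, AMPK and transcriptional control 17 of 24 genes were lower at 30 days and 3 higher, where 30.9% of all genes were lower and 33.7% higher. With totals 9 were lower, where 11.9% of all genes were. The falls past 1 were Ddit4l at -2.13 (-1.47) and Sesn1, a sestrin, at -1.40 (-0.74) at 10 days. At 30 days they were Foxo4, a FOXO transcription factor, at -2.05 (-1.55), Rragd, a GTPase that recruits mTORC1, at -2.04 (-1.56), and Prkaa2, a catalytic subunit of AMPK, at -1.96 (-1.47). Tsc1, an inhibitor of mTORC1, was at -1.60 (-1.11), Mitf, a relative of Tfeb, at -1.13 (-0.64), and Flcn, which controls TFEB through the Rag GTPases, at -1.05 (-0.56) at 30 days. Against these, Sesn3, another sestrin, rose by 1.75 at 10 days, 1.47 at 30 days and 1.82 at 60 days (2.40, 1.96 and 2.21), and Ddit4, an inhibitor of mTORC1, rose by 1.13 at 60 days (1.54).

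Among other genes of autophagosome formation, Atg9b, the second ATG9 gene, averaged 0.312 CPM ± 0.164 (SD, n = 4) at 0 days and 6.14 ± 2.23 at 10 days (log2 4.22 ± 0.53, edgeR adjusted p 3.64e-06; 4.87 with totals), opposite to Atg9a. At 60 days its log2 fold change, -1.63, was not called. Tp53inp1, a stress-induced protein that binds ATG8 proteins, rose by 2.01 at 30 days (2.50), while its relative Tp53inp2 changed by -1.53 at 10 days (-0.88). Vmp1, a scramblase of the endoplasmic reticulum, rose by 1.56 at 10 days (2.22), and Atg16l2, a relative of Atg16l1, by 1.27 at 30 days (1.77). Mapk8ip1, a scaffold that binds LC3, changed by -1.76 at 60 days (-1.36) and Sh3glb1, a partner of UVRAG, by -1.19 at 30 days (-0.69).

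In the list of selective receptors and mitophagy, 4 of 18 tested genes were higher and 6 lower at 10 days with TMM factors. Among all genes 33.3% were higher and 29.4% lower at that time. The list's counts were 2 and 9 at 30 days (all genes 33.7% and 30.9%) and 3 and 12 at 60 days (29.9% and 29.1%). The 4 mitophagy genes past 1 were lower with TMM factors. The kinase Pink1 changed by -1.18 at 30 days (-0.69) and the ubiquitin ligase Mul1 by -1.38 at 10 days (-0.72). Fundc2 and the mitochondrial receptor Bcl2l13 changed by -1.06 at 10 days (-0.40) and -1.31 at 60 days (-0.92). In the list for fusion with lysosomes Rilp, which links late endosomes to the dynein motor, changed by -1.84 at 10 days (-1.18).

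Marker transcripts of other cells moved over the same times. All 11 measured muscle fibre markers were lower at 10 days (10 with totals, with 1 higher), 9 at 30 days and 6 at 60 days, when 1 was higher. Of 12 macrophage markers 10 were higher at 10 days and 12 at 30 and at 60 days, and their summed level ran from 45.5 to 72.3 CPM in controls and from 139.97 to 189 after 10 days, then from 195 to 244 after 30 and from 163 to 300.04 after 60 days. Of 7 tested fibroblast markers 5, 7 and 7 were higher. The summed fibroblast level ran from 475 to 1017 CPM at 0 days and 946 to 2899 at 10 days, and the collagen gene Col1a2 was at 0 in every library. All 6 adipocyte markers were higher at 60 days and none was called earlier, with a summed level of 15.7 to 75.7 CPM at 0 days and 92.3 to 202 at 60 days. Of 6 Schwann cell markers 3 were lower at 10 days, when their summed level of 38.1 to 67.7 CPM was below every control (82.4 to 126 CPM). At 30 days 2 were higher, and at 60 days all 6 were, with 156 to 329 CPM. All 5 endothelial markers were lower at 10 days (1 with totals), from 248 to 291 CPM at 0 days to 143 to 209.9, and 2 of 3 tested satellite cell markers were higher at 30 and 60 days, with Cd34 at 0 in every library. The part of these changes in the autophagy gene levels was not tested.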

How the data were processed

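Messenger RNA of 16 rat supraspinatus libraries was used, grouped by the time in each label. Per the file headers the authors deposited raw fragments per gene and library, some of them not whole, so they are handled here like expected counts. TopHat2 2.0.9, Bowtie2 2.1.0.0, Cufflinks, Cuffdiff 2.1.1 and build rn5 are named in the submitters' processing notes, and strandedness is not given in the sources used here. Counts were rounded (233 of 17147 genes had a fractional value, no member did). Genes with low counts were removed by filterByExpr, leaving 11658. All libraries entered 1 edgeR 4.0.16 quasi-likelihood model (R 4.3.3, limma 3.58.1) with TMM factors and robust estimation, and p-values were adjusted over all genes. SE is the log2 fold change divided by the square root of F. Totals by library ran from 17.2 to 39.9 M (mega) fragments, and the common biological coefficient of variation was 0.150. Alternatives were RLE and upper-quartile factors, library totals, DESeq2 1.42.0, limma-voom, no filter, 2 groups alone, the replicate block, the title letter (an L or R of unstated meaning), thinned counts and leaving out each library. The edgeR fit was tested on simulated data with no shift of scale between groups, so that test cannot bear on the choice of scale.

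The members and gene lists were chosen with earlier results of these data known. Values of every library are given for the members called with an absolute log2 fold change of at least 1 against 0 days or, since 3 qualified, for the 8 with the largest called changes, and for the ATG8 genes and Tfeb. Other pathway genes could be named if called with at least 1. Promoters come from RefSeq (GRCr8). Levels are not compared between genes, since no transcript lengths were used. Counting intervals cover counting error only, and replicates differed by more than that.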

Additional observations from a re-analysis of the deposited data

Results flagged for a closer look

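In 5 of 140 gene and group combinations, 1 of the 4 libraries lay farther from the other 3 than Dixon's 95% limit allows; chance alone gives about 1 in 20. Replicate 2 at 10 days was high for Becn1, at 194 CPM where the others ran from 177 to 178 CPM, and for Pik3c3, at 28.8 CPM where the others ran from 24.1 to 24.8 CPM. Replicate 1 at 60 days was high for Ulk2, at 87.6 CPM, where the other 3 ran from 65.3 to 68.6 CPM. The others were low values: replicate 2 at 0 days for Gabarapl2, at 228 CPM against 242 to 245 CPM, and replicate 1 at 30 days for Bnip3, at 357 CPM against 398 to 404 CPM.

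With TMM factors, 7 genes had effects against 0 days that were opposite at 2 times, with every library on its side of the controls. The difference between the 2 times was itself called by edgeR. The comparisons share the 0-day libraries. How many of all genes meet these rules was not computed, so the count says nothing particular to the members. Between 30 and 10 days Atg13 differed by -0.64 on the log2 scale, with effects of 0.30 and -0.34 against 0 days. Gabarapl1 differed by -0.55 (effects 0.37 and -0.17) and Vps41 by -0.48 (effects 0.24 and -0.24) over the same times. Between 60 and 10 days the differences were -0.84 for Becn1, -1.38 for Atg4c, -1.13 for Map1lc3b, -0.90 for Gabarapl2 and -0.76 for Vps41. The 10-day effects of these 5 genes were 0.57, 0.79, 0.66, 0.57 and 0.24, and their 60-day effects were -0.26, -0.59, -0.46, -0.33 and -0.52. With library totals no later effect was called lower. The 30-day values were then 0.16 for Atg13, not called, and 0.32 for Gabarapl1 and 0.25 for Vps41, both called higher. At 60 days they were 0.14 for Becn1, -0.18 for Atg4c, -0.06 for Map1lc3b, 0.08 for Gabarapl2 and -0.11 for Vps41, none called. With upper-quartile factors the falls of Atg13, Gabarapl1 and Vps41 at 30 days and of Becn1 and Gabarapl2 at 60 days were not called. Leaving out 1 library lost the 10-day call of Atg13 in 10 of 16 fits and the 30-day call of Gabarapl1 in 11.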

How the results depend on the processing

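Of the 105 values of single genes against 0 days, 39 turned direction, with a call on at least 1 side, with library totals in place of TMM factors, and 0 did so under RLE or upper-quartile factors, DESeq2, limma-voom, no filter, fits of the 2 groups alone, the replicate block, the title letter, thinned counts or leaving out 1 library. The log2 fold changes that turned, as computed with library totals, were at 10 days Ulk1 0.56, Ulk2 0.11, Rb1cc1 0.51, Atg14 0.64, Atg2a 0.35, Atg3 0.61, Atg5 0.60, Atg16l1 0.17, Atg4b 0.40, Map1lc3a 0.54, Optn 0.56 and Bnip3 0.074. At 30 days Atg13 0.16, Becn1 0.38, Pik3c3 0.22, Atg14 0.35, Uvrag 0.40, Wipi1 0.37, Wipi2 0.064, Atg3 0.32, Atg5 0.28, Atg16l1 0.23, Atg4b 0.34, Map1lc3a 0.12, Map1lc3b 0.39, Gabarapl1 0.32, Gabarapl2 0.49 and Vps41 0.25. At 60 days Becn1 0.14, Pik3c3 0.15, Atg14 0.34, Atg3 0.25, Atg5 0.21, Atg12 0.27, Atg16l1 0.29, Atg4b 0.39, Gabarapl2 0.076, Nbr1 0.30 and Bnip3 0.019. Gene values kept their call and direction in 86 (upper-quartile factors) to 102 (limma-voom, 2 groups alone) of 105 under the other alternatives that used every library.

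Counts of called members moved most with library totals: 30 higher and 2 lower at 10 days, 22 and 9 at 30 days, 14 and 6 at 60 days, and 0 higher from 10 to 30 and from 10 to 60 days. With upper-quartile factors, which moved the median of all genes by 0.12 at 30 days, 5 were higher and 12 lower at 30 days, 5 were higher at 60 days, and 5 were higher from 10 to 30 and from 10 to 60 days. The 2 members higher at 60 days became 1, Ambra1, with DESeq2, limma-voom, no filter or the title letter. With the replicate block or thinned counts the 2 were Ambra1 and Wipi1, and Pik3r4 was not called. From 30 to 60 days fitting the 2 groups alone gave 1 higher and 2 lower instead of 3 and 7, and the title letter gave 1 higher. Leaving out 1 library gave 10 to 14 higher and 8 to 9 lower at 10 days, 3 to 4 and 15 to 19 at 30 days, and 1 to 3 and 17 to 20 at 60 days. From 10 to 30 days it gave 2 to 3 and 21 to 22, from 30 to 60 days 2 to 5 and 3 to 8, and from 10 to 60 days 3 to 5 and 22 to 23. The single member left higher at 60 days came without replicate 1 or 4 at 0 days, replicate 3 at 10 days, or replicate 1 or 3 at 60 days. The cause of these differences was not tested.

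With the suffix of the column names as a replicate block, 13 members were higher and 8 lower at 10 days, 3 and 18 at 30 days, and 2 and 19 at 60 days. Libraries with the same suffix did not deviate together: the mean correlation over 24 pairs was 0.0013, from -0.24 to 0.22. Depth limits levels to at least 0.0752 to 0.175 CPM (3 counts), below every value printed for a member.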
